A study of Mus musculus with 20 samples.

Results

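The transcripts described here are those of genes around the tumour suppressor p53 and the inhibitors of the cyclin-dependent kinases (CDKs), measured in mouse pluripotent cells and in samples titled FVB-sFB. They were chosen by name, as the probes of an Illumina bead array whose annotated gene symbol is one of 9 genes, and 8 of the 9 had a probe, among 16593 genes measured in all. The 8 genes, with 19 probes, are Cdkn2a, Cdkn2b, Cdkn2c, Cdkn1a, Cdkn1b, Ccng1, Mdm2 and Sesn1, and Trp53 itself is not analysed here. The study holds 20 arrays of total RNA in 5 titled groups of 4 arrays. The sFB-protein-iPS samples are labelled induced pluripotent stem cells, the E14-mES, GFPoct4 and C57-mES samples are labelled embryonic stem (ES) cells, and the FVB-sFB samples are named by their title only, because their source and cell type fields also say embryonic stem cell while the title of the study speaks of skin fibroblasts. Age, passage, clone and culture conditions are not given in the sources used here, and the titles are the only statement of how a group was made. Strain is not given beyond the titles, of which FVB-sFB and C57-mES hold names of mouse strains, and the title GFPoct4 names GFP and Oct4. Differences between groups in strain or in such a construct cannot be told apart from those in cell type. Nothing in the labels says whether the 4 arrays of a group were separate cultures, so the errors measure the spread between these arrays, which may be technical.

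p53 is a transcription factor that is held at a low level by the ubiquitin ligase Mdm2 and, once stabilized by DNA damage or other stress, switches on genes that halt the cell cycle, repair DNA or kill the cell. Among its targets are Cdkn1a (p21), Ccng1 (cyclin G1), Sesn1 (sestrin 1) and Mdm2 itself, which closes a feedback loop. The INK4 inhibitors (Cdkn2a, Cdkn2b and Cdkn2c) block the cyclin D kinases, the CIP/KIP inhibitors (Cdkn1a and Cdkn1b) mainly block cyclin E and cyclin A kinases, and Cdkn2a also encodes Arf, which restrains Mdm2. In skin fibroblasts kept in culture, the Cdkn2a-Cdkn2b locus and Cdkn1a are known to become active as cells approach senescence, and p53, Arf and p21 are known as barriers to the derivation of induced pluripotent cells.

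Levels are given as log2 of the background-corrected, quantile-normalized intensity of the brightest probe of each gene, so that 1 unit is a 2-fold difference, and levels of different genes are not compared. The brightest probe is the one with the highest mean over all 20 arrays, FVB-sFB included. A difference was called when limma's moderated test gave an adjusted p under 0.05 over all 16593 genes and the log2 difference was at least 1 in size. Probes were read as above background when they exceeded the 95th percentile of 1303 olfactory and vomeronasal receptor probes on the same array. All 10 skin fibroblast markers were above background on every FVB-sFB array, with a summed normalized intensity of 1195 to 1267 in sFB-protein-iPS, 1234 to 5907 in the ES lines and 90527 to 100009 in FVB-sFB. All 8 pluripotency markers were above background on every sFB-protein-iPS and ES array, and their sum was 118205 to 125031 in sFB-protein-iPS, 99876 to 131965 in the ES lines and 811 to 848 in FVB-sFB, where Nanog, Esrrb and Tdgf1 were below background on every array. The FVB-sFB arrays therefore read as fibroblasts and not as their cell type field says. Of 4 macrophage and leukocyte markers, Cd14 and Lyz2 were above background on every FVB-sFB array and Ptprc and Adgre1 on none, with a sum of 285 to 322 in sFB-protein-iPS, 279 to 345 in the ES lines and 2799 to 3092 in FVB-sFB, and the part of such cells in the results was not tested. In these bulk samples, fewer cells that carry a transcript and less of it per cell cannot be told apart.

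On their brightest probes, Cdkn2b, Cdkn2a, Cdkn1a, Ccng1 and Cdkn2c differed most between pluripotent groups and FVB-sFB. Sesn1, Mdm2 and Cdkn1b, whose group means spanned 1.52, 0.76 and 0.22, differed most between pluripotent groups. Every gene called against FVB-sFB was lower in the pluripotent cells. In sFB-protein-iPS against FVB-sFB, 5 of the 8 genes were lower (Cdkn2b, Cdkn2a, Cdkn1a, Ccng1 and Cdkn2c) and 0 higher, where 23.2% of all genes were called, 11.7% higher and 11.5% lower. In the mean of the 3 ES lines against the same FVB-sFB arrays, 4 were lower (Cdkn2b, Cdkn2a, Cdkn1a and Ccng1) and 0 higher, where 22.8% of all genes were called, 11.8% higher and 11.1% lower. Both comparisons share the FVB-sFB arrays, which also entered the choice of the brightest probe. For Ccng1 and Cdkn2a that probe ranked first only through its FVB-sFB level, so these counts and the medians that follow lean towards lower. In sFB-protein-iPS minus FVB-sFB the other probes gave -0.31 and -0.46 (Ccng1) and -0.69 (Cdkn2a), none called. With the mean of all probes, 3 of the 8 genes were called there. The median log2 difference of the 8 genes was -1.28 for sFB-protein-iPS minus FVB-sFB and -1.42 for the ES mean minus FVB-sFB, beside 0.03 and 0.01 over all genes. In sFB-protein-iPS against the ES mean, 2 were lower (Cdkn2b and Sesn1) and 0 higher, where 3.34% of all genes were called, 1.52% higher and 1.82% lower, and the median of the 8 genes was 0.03, beside 0.01 over all genes.

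**Figure D1:**
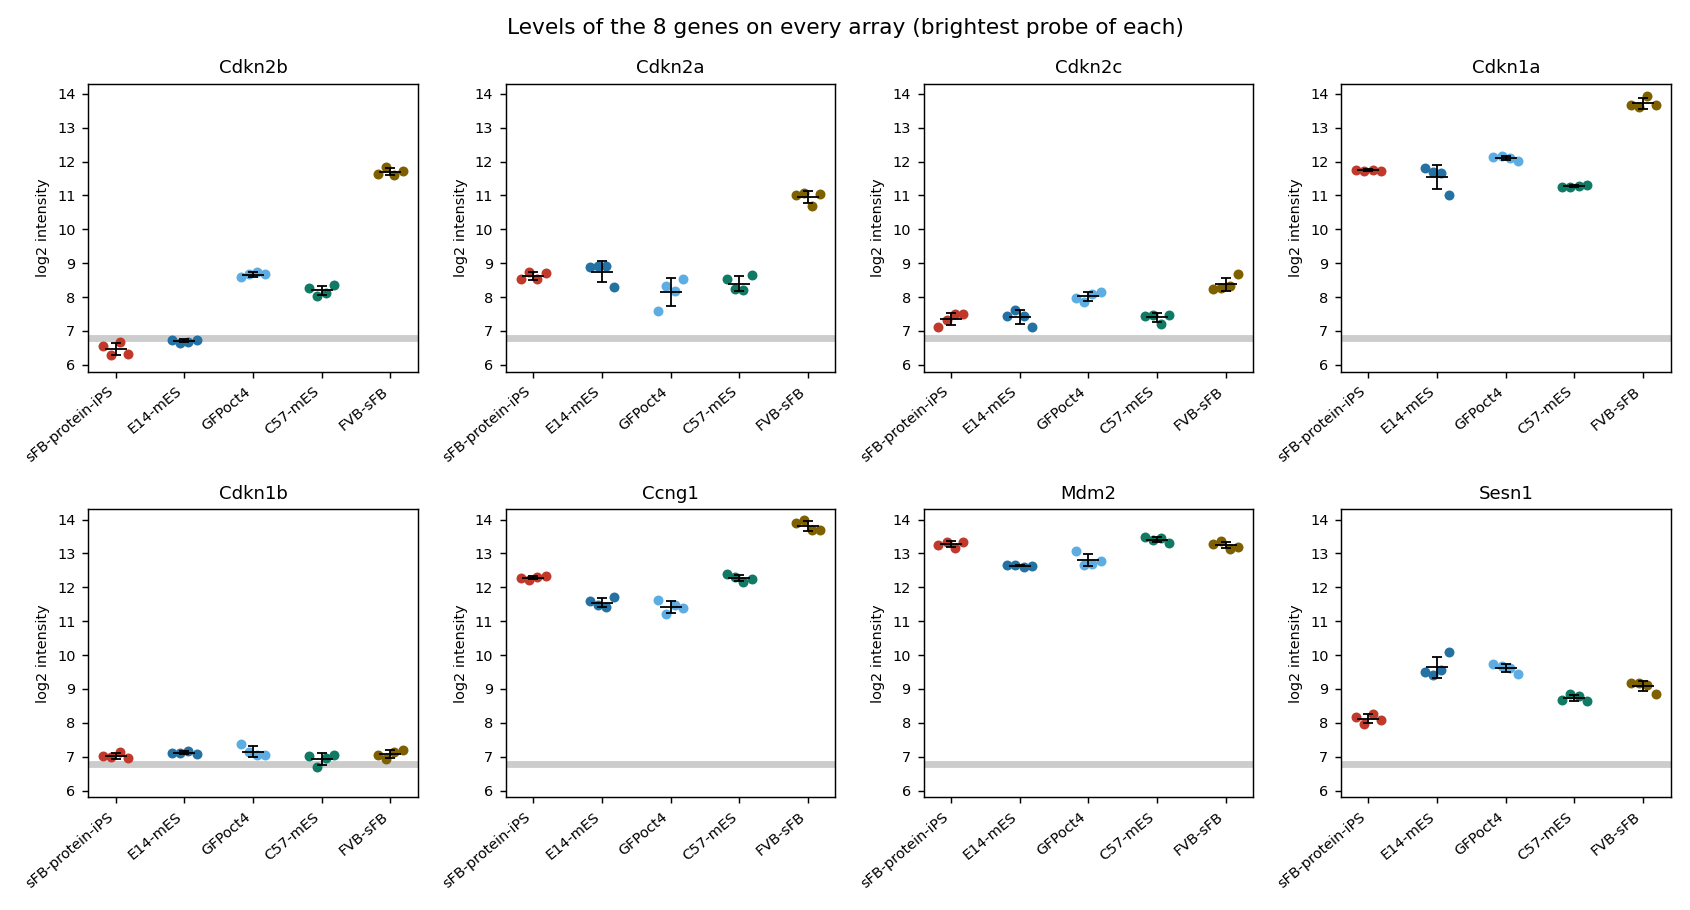
Each panel shows 1 gene, with the log2 intensity of its brightest probe on the vertical axis and the 5 groups along the horizontal axis. Points are single arrays, bars are the mean and SD of 4 arrays, and the grey band is the background level over all arrays. Cdkn2b lies at or under the band in sFB-protein-iPS and nearly all E14-mES arrays, while Cdkn1b hardly moves between groups.

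Among the INK4 inhibitors, Cdkn2b, which encodes p15 and answers to TGF-beta in many cells, showed the widest range of the 8 genes. Its only probe read 6.55, 6.30, 6.67 and 6.32 in sFB-protein-iPS, below background on all 4 arrays. It read 6.74, 6.66, 6.69 and 6.75 in E14-mES, with 1 of 4 arrays above background, and 8.58, 8.67, 8.73 and 8.68 in GFPoct4. It read 8.28, 8.04, 8.12 and 8.34 in C57-mES and 11.63, 11.85, 11.61 and 11.73 in FVB-sFB. No pluripotent array came near the FVB-sFB arrays, and the GFPoct4 and C57-mES arrays lay between these and the other pluripotent ones without overlap. Cdkn2b was at least 29.1-fold lower in sFB-protein-iPS than in FVB-sFB (fitted log2 difference -5.24 ± 0.10 SE, limma adjusted p = 1.77e-24), the bound being taken from the background level of each array. It was at least 30.9-fold lower in E14-mES than in FVB-sFB, 8.21-fold lower in GFPoct4 and 11.4-fold lower in C57-mES.

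Cdkn2a shares its locus with Cdkn2b and encodes p16Ink4a and, from an upstream first exon and another reading frame, Arf. The annotation pairs both Cdkn2a probes with 1 transcript accession and does not say which first exon they read, so p16 and Arf were not separated. The brighter probe read 8.52, 8.75, 8.54 and 8.71 in sFB-protein-iPS, 8.89, 8.92, 8.91 and 8.30 in E14-mES, and 7.59, 8.31, 8.19 and 8.54 in GFPoct4. It read 8.52, 8.23, 8.20 and 8.64 in C57-mES and 11.01, 11.09, 10.69 and 11.03 in FVB-sFB. All pluripotent arrays lay below all FVB-sFB arrays, and unlike Cdkn2b the transcript stayed above background on every array. By this probe Cdkn2a was 5.01-fold lower in sFB-protein-iPS than in FVB-sFB (-2.32 ± 0.16, limma adjusted p = 1.92e-12) and 5.73-fold lower in the ES mean (-2.52 ± 0.13, limma adjusted p = 4.19e-15). The second probe had the same direction with a smaller size, averaging 9.13 ± 0.12 in sFB-protein-iPS and 9.81 ± 0.14 in FVB-sFB (SD, n = 4 each), a difference of -0.69 that was not called, while its difference for the ES mean minus FVB-sFB (-1.30 ± 0.13) was called. The first probe ranked as the brighter only through its FVB-sFB level. In sFB-protein-iPS and in C57-mES (8.93 against 8.40) the second probe averaged higher than the first.

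The sequences before the start sites of both genes are shown because they lie in 1 locus and both transcripts fell in every pluripotent group. Each holds 250 bases before and 50 bases after a RefSeq start site of GRCm38.p6, 5′ to 3′ on the minus strand of chromosome 4. For Cdkn2a the upstream of its 2 start sites in the table is shown. Capitals mark GGGCGG (the GC box, bound by Sp1 factors) in Cdkn2b, where it begins at position 5 after the start, and TTTCCCGC (an E2F motif) in Cdkn2a, where it begins at position -99, with GGGCGG left in lower case there.
Cdkn2b, chr4:89310983-89311282: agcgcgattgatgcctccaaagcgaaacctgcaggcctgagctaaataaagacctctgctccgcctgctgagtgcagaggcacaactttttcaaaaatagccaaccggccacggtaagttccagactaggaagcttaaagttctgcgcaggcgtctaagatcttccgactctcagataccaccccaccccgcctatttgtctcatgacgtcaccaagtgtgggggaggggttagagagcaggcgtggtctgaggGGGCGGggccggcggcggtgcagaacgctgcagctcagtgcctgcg
Cdkn2a, chr4:89294570-89294869: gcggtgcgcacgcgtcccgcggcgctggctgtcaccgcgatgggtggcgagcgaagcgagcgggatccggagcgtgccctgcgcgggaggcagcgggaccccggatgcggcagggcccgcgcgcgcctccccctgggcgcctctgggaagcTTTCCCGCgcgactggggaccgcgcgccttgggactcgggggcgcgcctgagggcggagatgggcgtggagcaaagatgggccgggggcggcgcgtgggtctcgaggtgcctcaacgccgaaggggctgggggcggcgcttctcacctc
Searched on both strands, GGGCGG occurred in 35.7% of 32851 promoters of this length and in 9 of the 12 listed for the 8 genes, and TTTCCCGC occurred in 1.07% and in 1 of 12. The related E2F motif TTTGGCGC occurred in 0.514% of promoters and in 0 of the 12. The Cdkn2a window shown was 77% G or C with 45 CpG pairs, and the Cdkn2b window 57.7% with 18. At the Cdkn2a start site not shown, the window was 60.3% with 12.

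Cdkn2c encodes p18Ink4c, an INK4 inhibitor at another place on chromosome 4, and it changed least of the 3. It read 7.11, 7.32, 7.49 and 7.50 in sFB-protein-iPS, 7.46, 7.61, 7.45 and 7.11 in E14-mES, and 7.98, 7.86, 8.09 and 8.16 in GFPoct4. It read 7.45, 7.46, 7.20 and 7.48 in C57-mES and 8.24, 8.28, 8.33 and 8.67 in FVB-sFB. The FVB-sFB arrays were the highest and the GFPoct4 arrays came next, without overlap between any of these and the other groups. Cdkn2c was 2.03-fold lower in sFB-protein-iPS than in FVB-sFB (-1.02 ± 0.12, limma adjusted p = 3.19e-08), just past the fold threshold, and the call was lost without sFB-protein-iPS array 1 (-0.94) and without FVB-sFB array 4 (-0.93). Cdkn2c differed from FVB-sFB by -0.97 in E14-mES, -0.98 in C57-mES and -0.36 in GFPoct4, all with an adjusted p under 0.05 by limma and none at 2-fold. The differences in E14-mES and C57-mES lay so close to the threshold that leaving out FVB-sFB array 1 (-1.02 and -1.03) or 2 (both -1.01), E14-mES array 2 (-1.04, E14-mES only) or C57-mES array 2 (-1.001) or 4 (-1.01, C57-mES only for both) made them calls. The second Cdkn2c probe was below background on all pluripotent arrays and above it on all 4 FVB-sFB arrays (6.91, 7.15, 6.92 and 6.97).

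**Figure D2:**
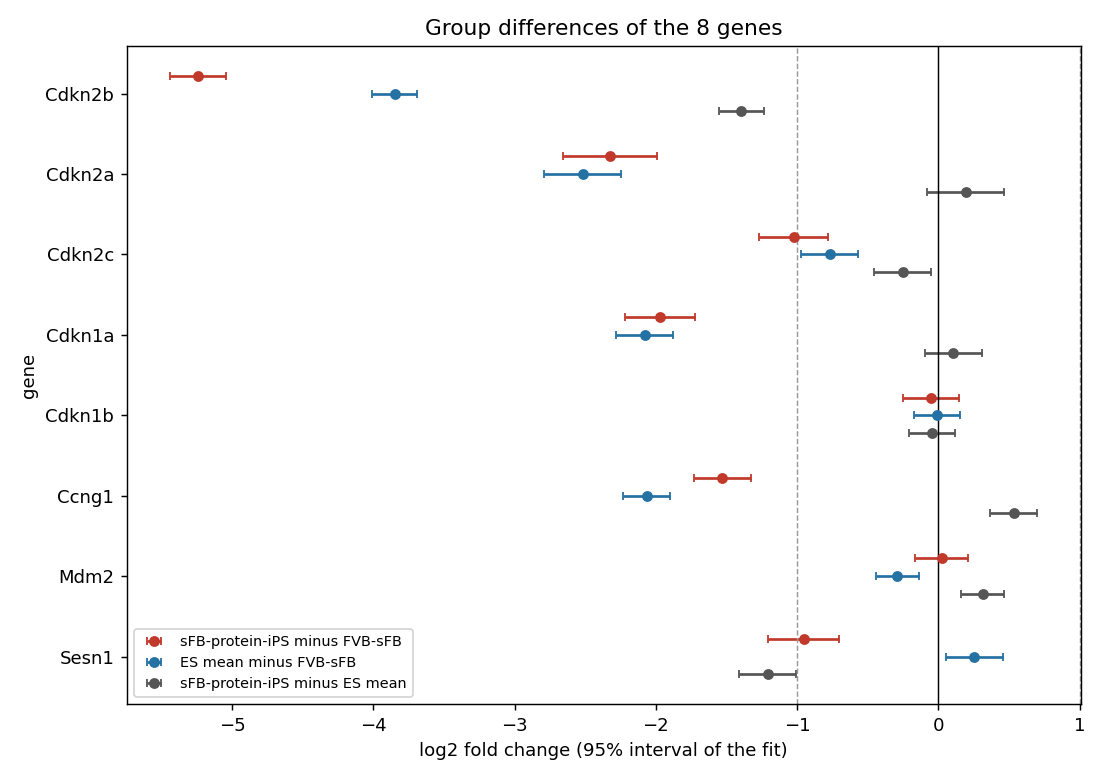
The horizontal axis gives the log2 difference of each gene in 3 comparisons, with the 95% interval of the fit, and the broken lines mark a 2-fold difference. Cdkn2b, Cdkn2a, Cdkn1a and Ccng1 lie left of -1 in both comparisons with FVB-sFB, and Cdkn2b and Sesn1 lie left of -1 in sFB-protein-iPS minus ES mean.

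Of the CIP/KIP inhibitors, Cdkn1a, the p21 gene and the best known target of p53 in cell cycle arrest, was lower in every pluripotent group. It read 11.76, 11.71, 11.77 and 11.73 in sFB-protein-iPS, 11.80, 11.71, 11.66 and 11.02 in E14-mES, and 12.13, 12.18, 12.09 and 12.01 in GFPoct4. It read 11.25, 11.24, 11.27 and 11.31 in C57-mES and 13.66, 13.60, 13.95 and 13.66 in FVB-sFB. The transcript was bright on all 20 arrays, and no pluripotent array reached the FVB-sFB arrays. Cdkn1a was 3.93-fold lower in sFB-protein-iPS than in FVB-sFB (-1.97 ± 0.12, limma adjusted p = 1.23e-13) and 4.22-fold lower in the ES mean (-2.08 ± 0.10, limma adjusted p = 4.38e-16). The 2 other Cdkn1a probes gave -2.12 and -2.50 for sFB-protein-iPS minus FVB-sFB, and all 3 probes were called in both comparisons.

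In the order of its levels, Cdkn1a stood highest in FVB-sFB, then in GFPoct4, sFB-protein-iPS, E14-mES and C57-mES. The step from GFPoct4 to sFB-protein-iPS was 0.36 (limma adjusted p = 0.0190), and the next steps, 0.20 to E14-mES and 0.28 from there to C57-mES, did not pass the test (limma adjusted p = 0.215 and 0.0707). E14-mES array 4 read 11.02, below the C57-mES arrays, while the other E14-mES arrays lay above them. That array also had a raw median intensity of 179, against 115 to 123 on the other E14-mES arrays.

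Cdkn1b encodes p27, which is regulated largely by protein turnover, and it was the flattest of the 8 genes. Its brightest probe averaged 7.02 ± 0.09 in sFB-protein-iPS, 7.12 ± 0.05 in E14-mES, 7.15 ± 0.16 in GFPoct4, 6.93 ± 0.17 in C57-mES and 7.08 ± 0.11 in FVB-sFB (SD, n = 4 each). These levels lay close to background, and the other 2 Cdkn1b probes were below background on all 20 arrays. In none of the 12 comparisons was the adjusted p of limma under 0.05, and the difference for sFB-protein-iPS minus FVB-sFB was -0.05 with a 95% interval of -0.25 to 0.15. A difference in Cdkn1b of the size seen for Cdkn2c lay outside that interval, on a probe whose dim signal limits what it can show.

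Ccng1 encodes cyclin G1, a p53 target that recruits a phosphatase to Mdm2, and its brightest probe was lower in every pluripotent group. That probe read 12.29, 12.22, 12.29 and 12.34 in sFB-protein-iPS, 11.60, 11.47, 11.41 and 11.71 in E14-mES, and 11.63, 11.22, 11.47 and 11.38 in GFPoct4. It read 12.39, 12.30, 12.16 and 12.25 in C57-mES and 13.90, 13.97, 13.68 and 13.70 in FVB-sFB. On this probe the FVB-sFB arrays stood clear of all others, sFB-protein-iPS and C57-mES overlapped, and E14-mES and GFPoct4 were lowest. Ccng1 was 2.89-fold lower in sFB-protein-iPS than in FVB-sFB (-1.53 ± 0.10, limma adjusted p = 4.15e-13) and 4.18-fold lower in the ES mean (-2.06 ± 0.08, limma adjusted p = 7.83e-18).

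The other 2 Ccng1 probes, which were also far above background, did not share this pattern. The probe ILMN_2702233 averaged 10.77 ± 0.03 in sFB-protein-iPS, 10.35 ± 0.11 in E14-mES, 9.90 ± 0.22 in GFPoct4, 11.77 ± 0.06 in C57-mES and 11.08 ± 0.26 in FVB-sFB. The probe ILMN_2710229 averaged 11.87 ± 0.07 in sFB-protein-iPS, 11.97 ± 0.05 in E14-mES, 11.65 ± 0.13 in GFPoct4, 12.94 ± 0.08 in C57-mES and 12.34 ± 0.17 in FVB-sFB (SD, n = 4 each). On both, C57-mES and not FVB-sFB was highest, and sFB-protein-iPS minus FVB-sFB was only -0.31 and -0.46, neither called. With the mean of all 3 probes, Ccng1 was not called in sFB-protein-iPS minus FVB-sFB (-0.77) nor in the ES mean minus FVB-sFB (-0.87), so both calls rest on its brightest probe. That probe ranked as brightest only through its FVB-sFB level, and ILMN_2710229 averaged higher in E14-mES, GFPoct4 and C57-mES. In GFPoct4 minus FVB-sFB the probe ILMN_2702233 was also called (-1.18), and with the mean of all probes Ccng1 was still called in E14-mES (-1.12) and GFPoct4 (-1.42) minus FVB-sFB.

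**Figure D3:**
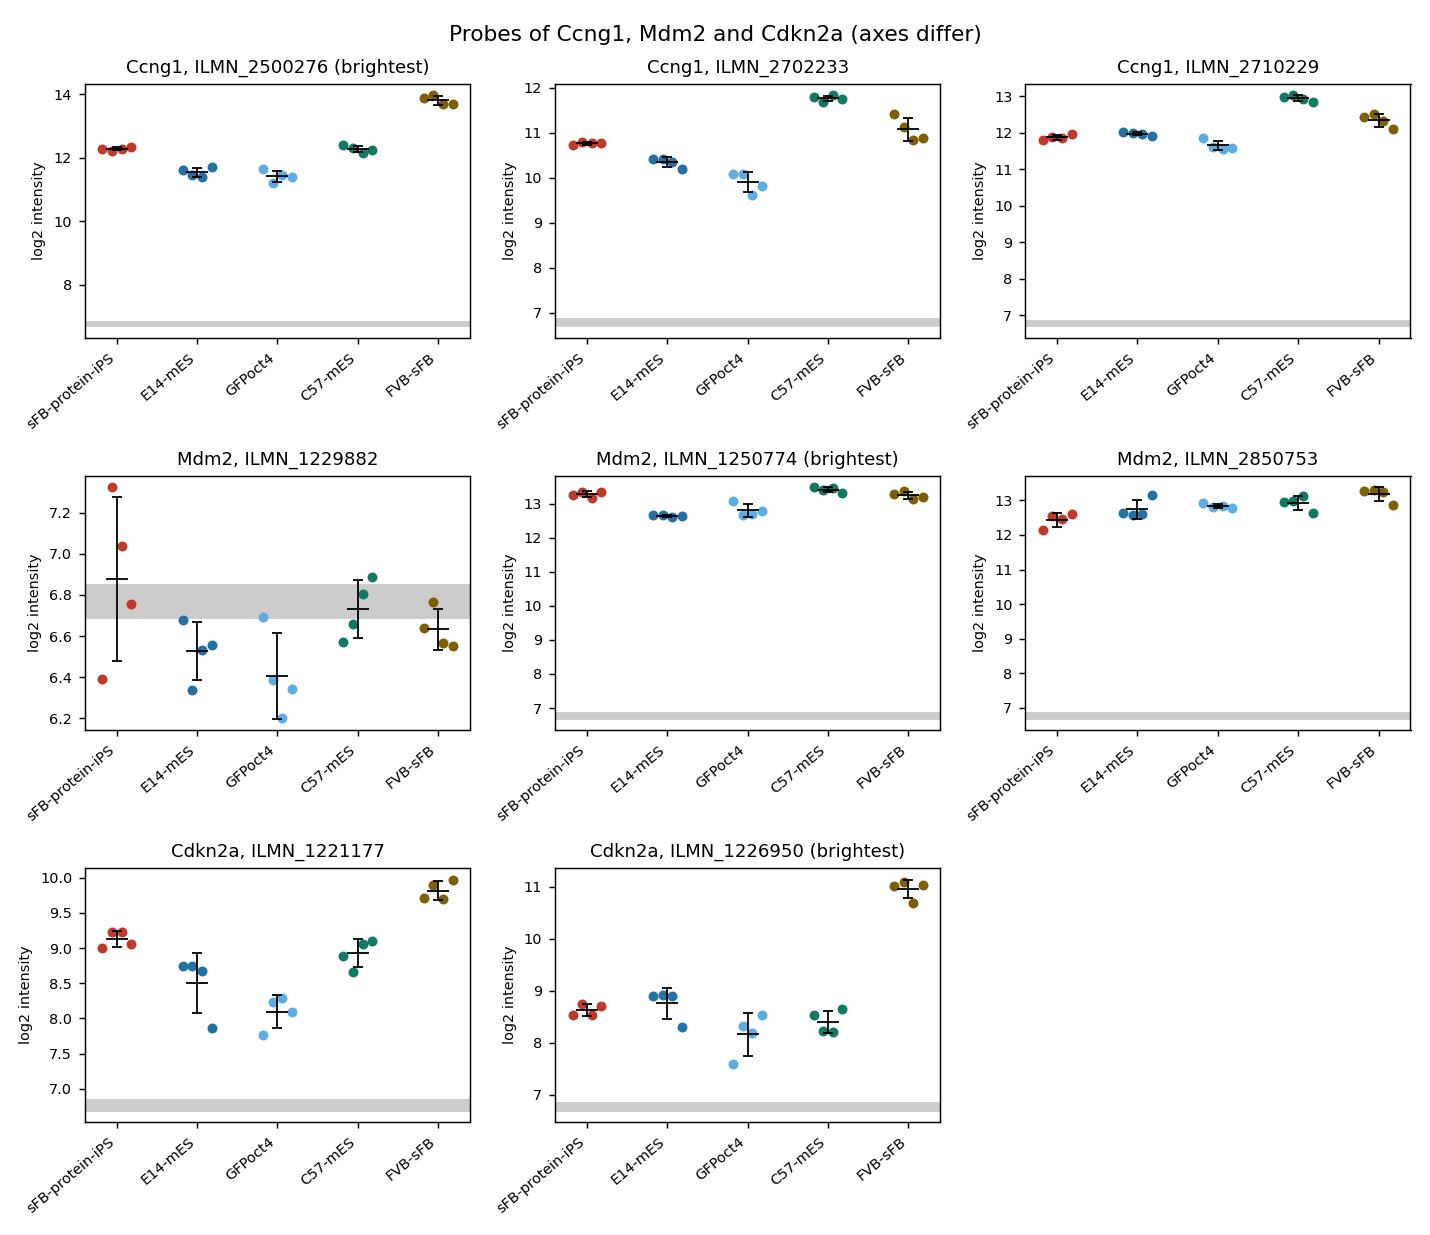
Single probes of Ccng1, Mdm2 and Cdkn2a are shown with log2 intensity on the vertical axes, whose ranges differ, and the 5 groups along the horizontal axes. Points are arrays, bars are the mean and SD of 4 arrays, and the grey band is the background level. The Ccng1 probes differ in which group is highest, FVB-sFB on the brightest and C57-mES on the other 2.

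Mdm2, the ubiquitin ligase that removes p53 and is at the same time a p53 target, was not called in any of the 12 comparisons. Its brightest probe read 13.26, 13.32, 13.15 and 13.34 in sFB-protein-iPS, 12.67, 12.65, 12.61 and 12.64 in E14-mES, and 13.08, 12.66, 12.70 and 12.78 in GFPoct4. It read 13.47, 13.40, 13.44 and 13.32 in C57-mES and 13.28, 13.36, 13.14 and 13.19 in FVB-sFB. The sFB-protein-iPS and FVB-sFB arrays overlapped, with a difference of 0.02 and a 95% interval of -0.16 to 0.21, and the sign turned under median centring (-0.32) and in the deposited value table (-0.78). The second bright Mdm2 probe instead put sFB-protein-iPS lowest, averaging 12.44 ± 0.20 in sFB-protein-iPS, 12.74 ± 0.27 in E14-mES, 12.83 ± 0.06 in GFPoct4, 12.92 ± 0.20 in C57-mES and 13.17 ± 0.20 in FVB-sFB (SD, n = 4 each). Its difference for sFB-protein-iPS minus FVB-sFB was -0.73 ± 0.13 (limma adjusted p = 2.38e-05, not at 2-fold), and the third Mdm2 probe lay near background.

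Sesn1 encodes sestrin 1, a stress protein that restrains mTORC1, and besides Cdkn2b it was the gene called in sFB-protein-iPS against the ES mean. It read 8.18, 7.97, 8.26 and 8.10 in sFB-protein-iPS, 9.51, 9.41, 9.57 and 10.10 in E14-mES, and 9.74, 9.68, 9.62 and 9.45 in GFPoct4. It read 8.68, 8.84, 8.78 and 8.64 in C57-mES and 9.17, 9.18, 9.12 and 8.85 in FVB-sFB. All 4 sFB-protein-iPS arrays lay below all 16 others. Sesn1 was 2.31-fold lower in sFB-protein-iPS than in the ES mean (-1.21 ± 0.10, limma adjusted p = 2.85e-10). It was 2.87-fold lower than in E14-mES and 2.82-fold lower than in GFPoct4, while the differences from C57-mES (-0.61, limma adjusted p = 0.000276) and from FVB-sFB (-0.95, limma adjusted p = 1.37e-07) did not reach 2-fold.

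The call of Sesn1 against FVB-sFB turned on small choices, since without FVB-sFB array 4 the difference was -1.03 and called. The second Sesn1 probe lay at or below background on most arrays, and with the mean of both probes the differences from the ES mean (-0.80), E14-mES (-0.98) and GFPoct4 (-0.91) were no longer called. The E14-mES and GFPoct4 arrays had raw maxima of 58519 to 63254, against 45509 to 52180 on the other arrays. Sesn1 was higher, and the brightest probes of Mdm2 and Ccng1 were lower, on the E14-mES and GFPoct4 arrays than on the C57-mES arrays. No label names a batch, and this split by raw maxima cannot be told apart from the cell lines. Among the groups with the lower raw maxima, Sesn1 differed by -0.95 (sFB-protein-iPS minus FVB-sFB), -0.61 (sFB-protein-iPS minus C57-mES) and -0.35 (C57-mES minus FVB-sFB). Between E14-mES and GFPoct4 it differed by 0.02.

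The promoters of Cdkn1a, Ccng1, Mdm2 and Sesn1 are shown because these 4 p53 targets differed in whether they moved, and because a p53 half-site stands in each. Each sequence holds 300 bases around a RefSeq start site of GRCm38.p6, 5′ to 3′ on the gene's strand, with the half-sites in capitals. Of the 2 start sites listed for Cdkn1a and for Sesn1, the one with a half-site is shown.
Cdkn1a, chr17:29090729-29091028, plus strand: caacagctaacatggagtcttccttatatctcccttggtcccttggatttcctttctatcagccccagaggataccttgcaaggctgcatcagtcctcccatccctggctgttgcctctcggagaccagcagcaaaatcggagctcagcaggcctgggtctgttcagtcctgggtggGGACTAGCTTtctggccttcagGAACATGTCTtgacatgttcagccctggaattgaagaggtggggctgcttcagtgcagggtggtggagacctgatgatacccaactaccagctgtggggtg
Ccng1, chr11:40755237-40755536, minus strand: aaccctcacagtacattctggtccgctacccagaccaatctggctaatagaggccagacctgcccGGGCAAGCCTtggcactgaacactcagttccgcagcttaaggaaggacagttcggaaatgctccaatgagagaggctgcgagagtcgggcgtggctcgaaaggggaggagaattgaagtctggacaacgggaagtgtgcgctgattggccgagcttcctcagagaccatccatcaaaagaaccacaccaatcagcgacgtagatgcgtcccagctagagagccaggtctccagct
Mdm2, chr10:117710709-117711008, minus strand: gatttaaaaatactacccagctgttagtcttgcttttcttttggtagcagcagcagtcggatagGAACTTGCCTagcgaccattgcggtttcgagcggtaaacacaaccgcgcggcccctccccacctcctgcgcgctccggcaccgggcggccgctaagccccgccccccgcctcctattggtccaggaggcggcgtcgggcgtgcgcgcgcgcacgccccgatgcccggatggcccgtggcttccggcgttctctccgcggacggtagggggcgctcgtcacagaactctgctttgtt
Sesn1, chr10:41887189-41887488, plus strand: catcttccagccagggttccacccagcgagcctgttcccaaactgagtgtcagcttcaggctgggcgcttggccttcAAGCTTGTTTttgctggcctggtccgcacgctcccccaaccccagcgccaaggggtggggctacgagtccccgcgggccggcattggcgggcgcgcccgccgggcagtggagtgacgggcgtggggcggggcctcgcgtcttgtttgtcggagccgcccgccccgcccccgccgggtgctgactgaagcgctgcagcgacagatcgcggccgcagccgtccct
The half-sites began at positions -73 and -51 in Cdkn1a, -185 in Ccng1, -186 in Mdm2 and -173 in Sesn1, counted from the first transcribed base as 1. The motif was searched on both strands and occurred in 8.36% of 32851 promoters, in 4 of the 12 listed for the 8 genes and in none of those of the INK4 genes or Cdkn1b. A match describes letters only. The Cdkn1a window shown had 2 CpG pairs, the Ccng1 window 14, the Mdm2 window 35 and the Sesn1 window 31. At the start sites not shown, the Cdkn1a window had 23 and the Sesn1 window 24.

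Against the ES lines one by one, sFB-protein-iPS differed in few of the 8 genes. Against E14-mES 1 was lower (Sesn1), where 6.99% of all genes were called and 3.81% were lower. Against GFPoct4 2 were lower (Cdkn2b and Sesn1), where 6.29% were called and 3.6% were lower. Against C57-mES 1 was lower (Cdkn2b), where 4.47% were called and 2.4% were lower. Cdkn2b was at least 3.55-fold lower in sFB-protein-iPS than in GFPoct4 (-2.20 ± 0.10, limma adjusted p = 1.89e-15) and at least 2.56-fold lower than in C57-mES (-1.73 ± 0.10, limma adjusted p = 1.74e-13). Against E14-mES, where the probe was below background on 7 of the 8 arrays, no fold is given. On their brightest probes, Cdkn1a, Cdkn2a and Cdkn2c were not called against any ES line. The second Cdkn2a probe was called higher in sFB-protein-iPS than in GFPoct4 (1.03, limma adjusted p = 4.91e-06), and the probe ILMN_2710229 of Ccng1 was called lower in sFB-protein-iPS than in C57-mES (-1.07). In the deposited value table Cdkn2c was called lower than in GFPoct4 (-1.01) and Sesn1 lower than in C57-mES (-1.06).

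Between the ES lines, Cdkn2b was the gene of the 8 that was called on the brightest probes. It was at least 2.71-fold lower in E14-mES than in C57-mES (-1.49 ± 0.10, limma adjusted p = 2.47e-12) and at least 3.76-fold lower in E14-mES than in GFPoct4 (-1.96 ± 0.10, limma adjusted p = 4.09e-14). In E14-mES against C57-mES 1 of the 8 was called, where 7.3% of all genes were called and 3.21% were lower. In E14-mES against GFPoct4 1 of the 8 was called, where 1.96% of all genes were called and 1.2% were lower. In GFPoct4 against C57-mES, 0 of the 8 were called, where 7.92% of all genes were called and 3.47% were lower, although 6 of the 8 had an adjusted p under 0.05 by limma, where 40.5% of all genes did. The other Ccng1 probes gave other calls: ILMN_2702233 was lower in E14-mES (-1.42) and in GFPoct4 (-1.87) than in C57-mES, and ILMN_2710229 was lower in GFPoct4 than in C57-mES (-1.29). With the mean of its 3 probes Ccng1 was called in both comparisons (-1.04 and -1.33). Sesn1 in E14-mES minus C57-mES was called after median centring (1.14) and in the deposited value table (1.21). The fibroblast markers summed to 1234 to 1549 in E14-mES, 5391 to 5907 in GFPoct4 and 1698 to 1926 in C57-mES, the same order as Cdkn2b, and the part of fibroblast-like cells in it was not tested.

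Against FVB-sFB, each ES line had 4 of the 8 genes lower and 0 higher on the brightest probes, the same 4 (Cdkn2b, Cdkn2a, Cdkn1a and Ccng1). Of all genes, 24.6% were called and 11.5% lower in E14-mES, 22.8% and 11% in GFPoct4, and 23.9% and 11.6% in C57-mES. The fall of Ccng1 in C57-mES was seen on its brightest probe only. Its other probes were higher in C57-mES than in FVB-sFB, ILMN_2702233 by 0.69 (limma adjusted p = 8.32e-06) and ILMN_2710229 by 0.60 (limma adjusted p = 3.07e-06), neither at 2-fold. With the mean of its 3 probes, Ccng1 in C57-mES minus FVB-sFB was -0.08 and not called. The smallest of these falls in Cdkn1a was in GFPoct4 (3.06-fold) and the largest in C57-mES (5.46-fold). On its brighter probe, Cdkn2a fell 4.59-fold in E14-mES, 6.95-fold in GFPoct4 and 5.88-fold in C57-mES. The second Cdkn2a probe gave log2 differences of -1.31 in E14-mES and -1.72 in GFPoct4, both called, and -0.89 in C57-mES, not called. Sesn1 was higher than FVB-sFB in E14-mES (0.57) and GFPoct4 (0.54) and lower in C57-mES (-0.35), each with an adjusted p under 0.05 by limma and none at 2-fold.

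Other genes of the pathways were followed as 6 lists, whose counts stand beside 11.7% of all genes called higher and 11.5% lower in sFB-protein-iPS than in FVB-sFB, and 11.8% higher and 11.1% lower in the ES mean. Of 13 measured p53 regulators and damage kinases, 7 were higher and 0 lower in sFB-protein-iPS than in FVB-sFB (median 1.19, beside 0.03 over all genes). They included the deacetylase Sirt1 (3.22 ± 0.13), the deubiquitinase Usp7 (2.04 ± 0.12), the acetyltransferase Ep300 (1.50 ± 0.14) and the phosphatase Ppm1d (1.45 ± 0.12). The count depended on the scaling, with 5 higher and 1 lower after median centring and 2 higher and 1 lower in the deposited value table, where the median of all genes was -0.41. In the ES mean against FVB-sFB, 7 were again higher and 0 lower.

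Of 20 measured p53 targets outside the 8 genes, 3 were higher and 5 lower in sFB-protein-iPS than in FVB-sFB (median 0.07), against 23.2% of all genes called in either direction. The death receptor Fas was at least 13-fold lower (-3.98 ± 0.11), and the kinase Plk2 was lower by 1.80 log2 units (-1.80 ± 0.12). The damage sensor Ddb2 (2.02 ± 0.08) and the growth arrest gene Gadd45a (1.64 ± 0.12) were higher. In the deposited value table the split was 1 higher and 8 lower. In the ES mean against FVB-sFB, 5 were higher and 4 lower.

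Of 13 measured G1 cyclins, kinases and E2F factors, 6 were higher and 2 lower in sFB-protein-iPS than in FVB-sFB (median 0.87), and 9 were higher and 2 lower in the ES mean. Lower were the D cyclins Ccnd2 (-4.07 ± 0.11) and Ccnd1 (-2.83 ± 0.14), the partners of the kinases that INK4 proteins block. Higher were the phosphatase Cdc25a (2.52 ± 0.12), which activates Cdk2, and the transcription factor E2f2 (2.29 ± 0.17), which was above background on 2 of the 4 FVB-sFB arrays. Ccnd1 and Ccnd2 thus fell beside Cdkn2a and Cdkn2b, while the D cyclin Ccnd3 was not called lower. In the deposited value table the split of the list was 3 higher and 2 lower. In the ES mean the number higher was 6 after median centring and 5 in the deposited value table. Of 5 other CDK inhibitors and pocket proteins, 1 was higher and 0 lower in sFB-protein-iPS than in FVB-sFB, the imprinted inhibitor Cdkn1c (p57, 1.62 ± 0.09), which was also higher in the ES mean (3.47 ± 0.08). In the deposited value table the first of these calls was lost (0.68), and the list then had 0 higher and 1 lower.

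Of 14 measured regulators of the Cdkn2a-Cdkn2b locus, 5 were higher and 2 lower in sFB-protein-iPS than in FVB-sFB (median 0.43), and 5 were higher and 3 lower in the ES mean (median -0.07). In sFB-protein-iPS, the Polycomb proteins Cbx7 (3.71 ± 0.10) and Suz12 (2.68 ± 0.11) and the T-box repressor Tbx3 (3.09 ± 0.12), all known to repress the locus, were higher, and Ets1 (-2.81 ± 0.12), known to activate p16, was lower. These were named as the largest changes among those called, and 7 of the 14 were not called. Their part in the levels of Cdkn2a and Cdkn2b was not tested. The p16 repressor Id1 was instead called lower in the ES mean than in FVB-sFB (-1.17 to -1.04 with single arrays left out). In sFB-protein-iPS minus FVB-sFB, Id1 was not called. There the list had 4 higher and 3 lower after median centring and in the deposited value table. Of 4 turnover factors of p27, 1 was higher and 0 lower, the ubiquitin ligase subunit Skp2 (1.40 ± 0.13), whose call was lost after median centring (0.90) and in the deposited value table (0.42). In sFB-protein-iPS against the ES mean, where 3.34% of all genes were called, 3 genes of all 6 lists were called, Cdkn1c (-1.85 ± 0.08) and the p53 target Pmaip1 (Noxa, -1.44 ± 0.10) lower and Id1 (1.49 ± 0.12), a repressor of p16, higher. In the deposited values, with a median of -0.28 over all genes for this comparison, 6 p53 targets and 4 p53 regulators were called lower. Ccnd1 was called lower after median centring (-1.16), in the deposited values (-1.39) and with the mean of all probes (-1.17), and Skp2 after median centring (-1.02) and in the deposited values (-1.24).

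**Figure D4:**
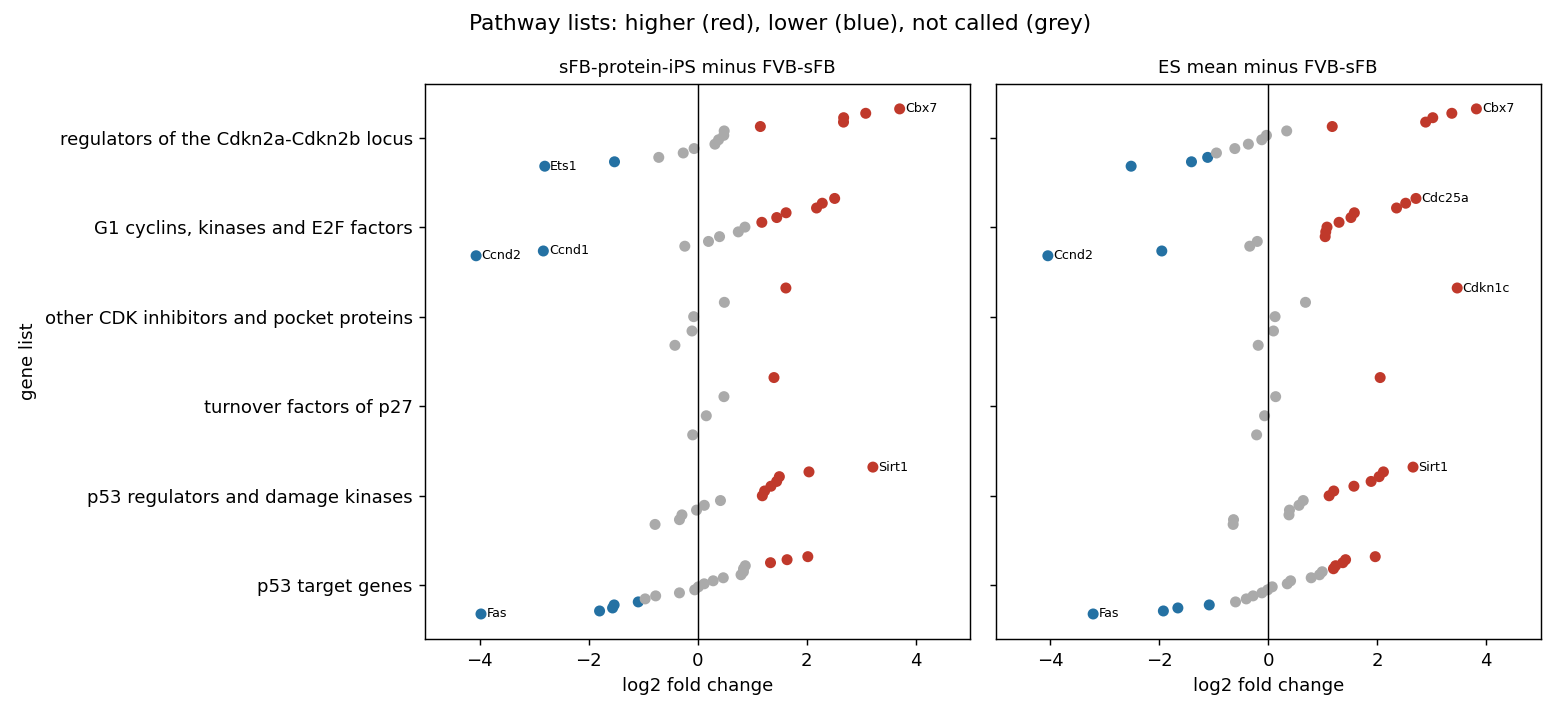
Each point is a gene of 1 of 6 pathway lists, placed by its log2 difference on the horizontal axis, with the lists down the vertical axis. Red points were called higher, blue points lower, and grey points were not called, in sFB-protein-iPS minus FVB-sFB on the left and the ES mean minus FVB-sFB on the right. All 7 called p53 regulators lie to the right of 0 in both panels.

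The genes whose levels over the 20 arrays were most like those of the 8 genes were sought among 5859 others whose group means spanned at least 1 log2 unit. The arrays of a group share their cells, so each correlation rests largely on 5 group means and is a description. Nearest to Cdkn2b were the matrix genes Fbln2 (Pearson r = 0.995) and Tnc (0.991) and the transcription factor gene Gata2 (0.990). Nearest to Cdkn2c were Tmem59 (0.946), Ccnd1 (0.941) and Tmem176b (0.935). Nearest to Cdkn1a were Txndc15 (0.992), H1f2 and Ilk (0.985 each), to Cdkn2a Gask1b (0.971), Iscu (0.971) and Ube2e2 (0.970), to Ccng1 Ap2m1 (0.990), Ndn (0.986) and Extl2 (0.984), and to Sesn1 the glycolytic gene Tpi1 (0.972), Arhgef18 (0.960) and Lnx2 (0.959). Mdm2 and Cdkn1b spanned less than 1 unit and were not searched.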

How the data were processed

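Total RNA (500 ng per sample, per the labels' protocols) was hybridized to Illumina mouse bead arrays and exported with BeadStudio, per the submitters' processing notes, which give no version. The deposited table gives linear probe intensity before normalization, per its name and the labels, and the authors' deposited value table is the log2 of it (largest difference 5.0e-09). No columns were left out (0). Detection p-values and slide positions were not used here, so background was read from receptor probes, which were picked with the values known, and precision is limited by 4 arrays a group.

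With R 4.3.3 and limma 3.58.1, intensities were corrected by normexp (offset 50), quantile-normalized and log2-transformed. Among 25697 probes, 1 symbol was annotated to 23978, several to 0 and no symbol to 1719, and the brightest probe was used for each of 16593 genes. Samples were grouped by title. One linear model with 5 group means gave 12 comparisons, with Benjamini-Hochberg adjustment over all genes. Errors are SE for differences and SD for levels, and "at least" marks folds bounded by the background level. The script was tested on simulated data.

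Of 40 same-numbered pairs of arrays from different groups 5 had deviations correlated above 0.1 (range -0.330 to 0.246), and replicate numbers were therefore read as names only. Each of the 8 genes was described, and up to 4 called genes of each list were named by size of change. The genes and lists were chosen with earlier results of these data known. Promoters came from RefSeq (GRCm38.p6), in which all 8 genes matched, with 12 start sites. Of 110 list and marker entries 104 were measured.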

Additional observations from a re-analysis of the deposited data

Results flagged for a closer look

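Of 40 sets of 4 arrays (8 genes in 5 groups), 4 held 1 array far from the other 3 by Dixon's test at the 95% level, where chance gives about 1 in 20. Cdkn2a read 8.302 on E14-mES array 4, against 8.89 to 8.92 on the other E14-mES arrays, and this array also had the highest raw median of its group. Cdkn1a read 13.95 on FVB-sFB array 3, against 13.60 to 13.66 on the others. Sesn1 read 8.854 on FVB-sFB array 4, against 9.12 to 9.18. Cdkn2c read 7.204 on C57-mES array 3, against 7.45 to 7.48. Without FVB-sFB array 4, Cdkn2c was no longer called (-0.93) and Sesn1 was called (-1.03) in sFB-protein-iPS minus FVB-sFB, while leaving out each of the other 3 arrays changed no call of the 8 genes.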

How the results depend on the processing

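Of 4680 values (156 results under 30 alternatives, 20 of which left out 1 array), 4610 kept their side of the threshold, 23 lost it, 30 gained it and 17 turned sign with an adjusted p under 0.05 before or after, 0 of them called in the values reported. Of the 4610, 66 turned sign with an adjusted p of at least 0.05 both before and after. The calls of Cdkn2b, Cdkn2a and Cdkn1a in sFB-protein-iPS minus FVB-sFB held under every alternative, at -5.07 to -5.68, -1.51 to -3.28 and -1.89 to -2.81. No alternative used another probe alone, and the second Cdkn2a probe by itself was not called (-0.69). For Cdkn2c this call was lost without background correction (-0.98), with array weights (-0.97), with the mean of all probes (-0.84) and without FVB-sFB arrays 3 and 4 (-0.90). For Sesn1 it was gained with array weights (-1.003), median centring (-1.42), the deposited value table (-1.86) and without FVB-sFB arrays 3 and 4 (-1.05). Why these values moved was not tested.

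In the deposited value table, which has no normalization between arrays, the median of all genes was -0.41 in sFB-protein-iPS minus FVB-sFB, -0.15 in the ES mean minus FVB-sFB and -0.28 in sFB-protein-iPS minus ES mean, and the first 2 were 0.14 and 0.08 after median centring. Among calls over all genes, 50.4% were higher in sFB-protein-iPS than in FVB-sFB, 33.9% after median centring and 16.4% in the value table. For the ES mean against FVB-sFB these shares were 51.6%, 47.4% and 35.1%, and for sFB-protein-iPS against the ES mean 45.5%, 15.2% and 4.52%, of 554, 797 and 1437 calls. The value table turned these signs: Mdm2 (-0.78) and Id1 (-0.50) in sFB-protein-iPS minus FVB-sFB, Sesn1 in ES mean minus FVB-sFB (-0.11), Cdkn1a in sFB-protein-iPS minus E14-mES (-0.48) and Cdkn2a in sFB-protein-iPS minus GFPoct4 (-0.10). In sFB-protein-iPS minus ES mean it turned Mdm2 (-0.10), Cdkn1a (-0.37), Cdkn2a (-0.45), Ddb2 (-0.56), Gadd45a (-0.20), Ep300 (-0.23) and Ppm1d (-0.20). Median centring turned Mdm2 (-0.32) and Id1 (-0.0470) in sFB-protein-iPS minus FVB-sFB, and Ddb2 (-0.33) and Ep300 (-0.0039) in sFB-protein-iPS minus ES mean. The mean of all probes turned Ccng1 in sFB-protein-iPS minus C57-mES (-0.69).

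With the mean of all probes, the genes called of the 8 were 3 in sFB-protein-iPS minus FVB-sFB, 1 in sFB-protein-iPS minus ES mean, 0 in sFB-protein-iPS minus E14-mES, 1 in sFB-protein-iPS minus GFPoct4, 1 in GFPoct4 minus C57-mES and 2 in E14-mES minus C57-mES. This last count was also 2 after median centring and in the value table, where sFB-protein-iPS minus C57-mES had 2. Leaving out 1 array gave 4 to 5 genes called in sFB-protein-iPS, E14-mES and C57-mES minus FVB-sFB, 4 in ES mean and GFPoct4 minus FVB-sFB, 2 in sFB-protein-iPS minus ES mean and minus GFPoct4, 1 in sFB-protein-iPS minus E14-mES and minus C57-mES and in E14-mES minus C57-mES and minus GFPoct4, and 0 in GFPoct4 minus C57-mES.

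With the replicate number as a block, the calls of the 8 genes did not change (5 in sFB-protein-iPS minus FVB-sFB, and 3847 with and without the block over all genes). Of 20 arrays 6 correlated best with their own number, a hint from the data and not the design. FVB-sFB arrays 1 and 2 deviated together (r = 0.521), as did 3 and 4 (0.386). Levels near background, as for Cdkn1b, limit what these arrays can show.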

Other observations

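Around the Cdkn2a-Cdkn2b locus, 4 neighbouring genes were measured. Mtap, the methionine salvage enzyme next to Cdkn2a, was lower in sFB-protein-iPS than in FVB-sFB (-1.01, limma adjusted p = 3.78e-10) and by less in the ES mean (-0.57, not at 2-fold). Ifne (0.30), Dmrta1 (0.07) and Zfp352 (-0.00) were not called in sFB-protein-iPS minus FVB-sFB.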
